A study of Homo sapiens with 6 samples.

Results

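In Panc-1 cells treated with TGFβ, messages of 4 interstitial collagen genes were clearly higher than in untreated cells: COL1A1, COL7A1, COL5A1 and COL5A2. Averaged over all probe sets of a gene they rose by 2.51 (SE 0.081), 2.29 (SE 0.079), 1.33 (SE 0.13) and 1.12 (SE 0.059) on the log2 scale, in 3 of 3 pairs of same-numbered arrays each. COL7A1 rose by 1.87 by its only probe set with a signal of 100 in both groups, and no COL5A1 probe set reached 100 without TGFβ. Messages of COL1A2, the partner chain of COL1A1, stayed below a signal of 100 in both groups, with a difference of 0.053 on the log2 scale (95% confidence interval -0.073 to 0.18). COL6A1 had 1 probe set above that limit, which was lower with TGFβ, and the arrays of the groups overlapped for the only COL6A2 probe set above it. Averaged over all probe sets, COL6A1 differed by -0.078 (SE 0.054) and COL6A2 rose by 0.27 (SE 0.071), although no COL6A2 probe set was called changed by itself. COL12A1 and COL13A1 rose by 0.28 and 0.26 on the log2 scale, at signals below 100, and missed the threshold when certain single replicates were left out.

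The genes described were COL1A1, COL1A2, COL5A1, COL5A2, COL6A1, COL6A2, COL7A1, COL12A1 and COL13A1, 9 of 19777 genes that the array's annotation names. They were chosen by name as collagens of interstitial and fibrillar matrix, with earlier results of these data known. Other fibrillar collagens, such as COL3A1 and COL11A1, were not among the 9 and are described further below. Every probe set annotated to only 1 of the 9 was taken, which gave 33 of 54613 probe sets. Panc-1 is an established cell line grown from a carcinoma of the human pancreas. Its messages were read on Affymetrix U133 Plus arrays in 2 groups of 3, without treatment and with porcine TGFβ1. Per the labels the dose was 5 ng/mL for 48 h after 24 h without serum, in an experiment done 3 times, but a dose of 5 nM stands in the study's methods and the conflict is not settled here. The study asked how epithelial-mesenchymal transition (EMT) induced by TGFβ changes the expression of glycosylation genes.

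Collagens are secreted proteins in which 3 chains wind into a triple helix. Fibrillar collagens such as type I lose their propeptides outside the cell and assemble into fibrils, which lysyl oxidases crosslink. Type V sits within type I fibrils and limits their width, type VI forms beaded filaments around cells, type VII makes the anchoring fibrils below epithelia, type XII binds the surface of fibrils, and type XIII is a membrane collagen at cell contacts. In a pancreatic tumour most of this matrix is laid down by stromal fibroblasts and stellate cells, and TGFβ is known as a strong inducer of collagen expression in such cells.

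Promoter sequence was on hand for 5 of the 9 genes, as RefSeq windows of build GRCh38.p14 that end at the gene's start. COL7A1 lies at chr3:48595330-48595579 on the minus strand, COL5A1 at chr9:134641553-134641802 on the plus strand and COL6A2 at chr21:46097862-46098111 on the plus strand. These 3 windows of 250 bases are shown because COL7A1 and COL5A1 rose clearly and COL6A2 did not, as described below. They run 5′ to 3′ on the gene's strand, and capitals mark matches to any of 6 motifs on either strand.
COL7A1: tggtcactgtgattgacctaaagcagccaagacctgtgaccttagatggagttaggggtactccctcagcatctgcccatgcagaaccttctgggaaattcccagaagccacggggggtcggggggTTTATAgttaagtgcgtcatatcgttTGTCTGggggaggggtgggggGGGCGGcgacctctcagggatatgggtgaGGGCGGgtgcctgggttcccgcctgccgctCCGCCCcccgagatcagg
COL5A1: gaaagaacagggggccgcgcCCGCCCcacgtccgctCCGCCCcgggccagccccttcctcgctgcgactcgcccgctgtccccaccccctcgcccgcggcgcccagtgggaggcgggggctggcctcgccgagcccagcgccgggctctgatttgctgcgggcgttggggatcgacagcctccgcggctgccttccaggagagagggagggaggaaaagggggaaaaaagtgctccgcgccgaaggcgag
COL6A2: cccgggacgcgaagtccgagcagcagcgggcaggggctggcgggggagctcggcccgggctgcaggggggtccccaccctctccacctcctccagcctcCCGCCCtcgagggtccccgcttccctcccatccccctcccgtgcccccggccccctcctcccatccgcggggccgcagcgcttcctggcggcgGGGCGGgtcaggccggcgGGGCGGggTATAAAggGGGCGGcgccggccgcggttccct

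The first motif searched was CAGACA, the core that SMAD proteins, the transcription factors of the TGFβ pathway, can bind. The second was the GC box GGGCGG, bound by factors of the SP family. The others were the promoter element TATAAA, the CCAAT box, the AP-1 site TGACTCA and the E-box with the letters CACCTG, which SNAI and ZEB proteins can bind. No matches overlapped each other in these windows. The COL7A1 window held CAGACA on the opposite strand, written TGTCTG, 98 bases before the gene's start, and 13.6% of 35116 promoter windows of the same length held this motif. It also held TATAAA on the opposite strand 124 bases before the start. GC boxes occurred 3 times in COL7A1, 2 times in COL5A1, 4 times in COL6A2 and 1 time in COL12A1, against 42.6% of all windows with at least 1. TATAAA lay 32 bases before the start of COL6A2 and 236 bases before that of COL13A1, and 10.7% of all windows held it. The CCAAT box, the AP-1 site and the E-box, held by 32.0%, 4.2% and 17.5% of all windows, had no match in the 5 windows. G and C made up 60.8% of the COL7A1 window, 74.0% of the COL5A1 window and 79.6% of the COL6A2 window, against a median of 58 percent over all windows. A match here is a description of letters and says nothing of whether a factor binds.

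Values are log2 signals, and a signal of 100 equals 6.64. Probe sets were tested with limma, with the experiment number as a block, and were called changed below 0.05 after Benjamini-Hochberg adjustment. Arrays with the same number in their labels were taken as 1 experiment, following the paired test of the study's methods, but the numbers need not pair them. Of all 33 collagen probe sets, tested among all 54613 without any limit on signal, 14 were higher with TGFβ (42.4%), 1 was lower (3.03%) and 18 did not pass. Among all probe sets of the array 20.2% were called in this fit, 9.22% higher and 11.0% lower. In 16 of the 33 every TGFβ array was above every untreated array, and in 1 every TGFβ array was below, compared with 18.0% of all probe sets in each direction and 36.0% in either. A rise of at least 1 on the log2 scale was seen in 10 of the 33, against 0.950% of all probe sets. The median change was 0.23 for the 33 probe sets and 0.011 for all. Probe sets of the same gene share its transcripts and are not independent of each other. The 9 genes were chosen with earlier results of these data known, so these shares only describe a chosen set.

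**Figure D1:**
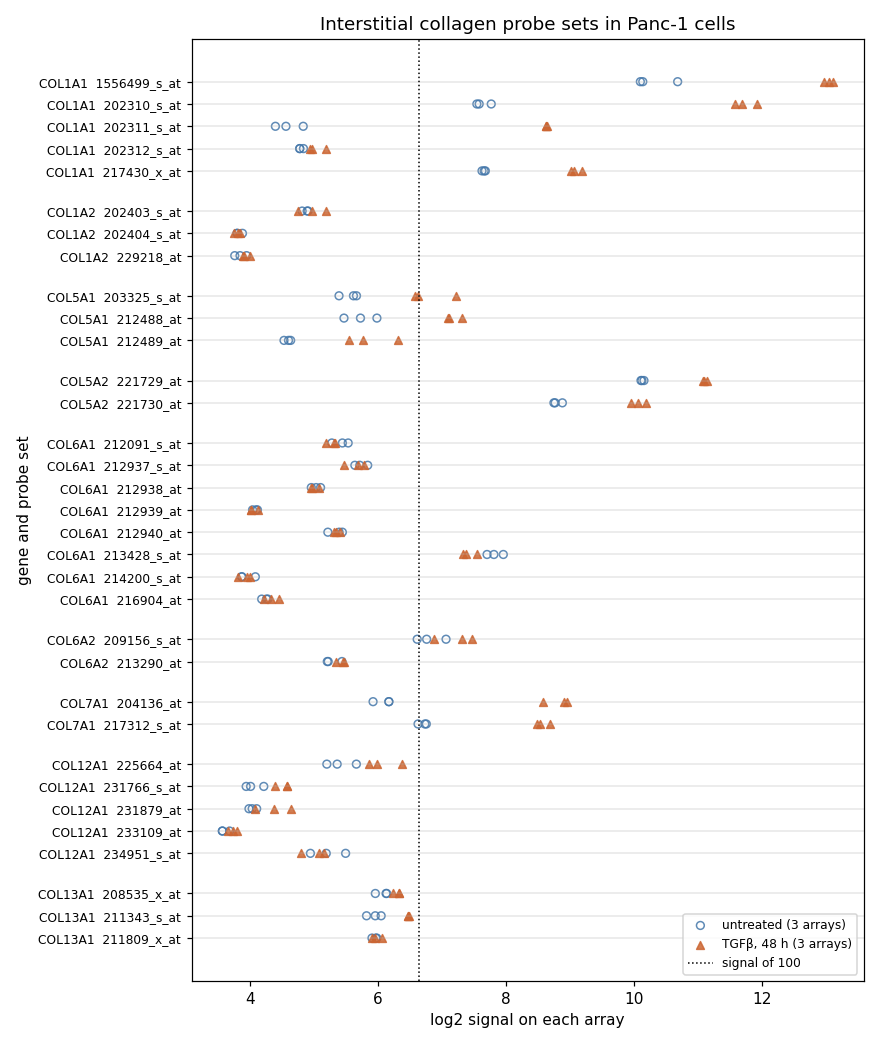
Log2 signal on each array for all 33 collagen probe sets, as circles for the 3 untreated arrays and triangles for the 3 TGFβ arrays, with the signal of 100 (6.64) as a dotted line. Gaps between circles and triangles are wide for 4 COL1A1 probe sets and both of COL7A1, while the symbols overlap for COL1A2 and most of COL6A1.

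Only 12 of the 33 probe sets, of 6 genes, reached a mean signal of 100 in either group. Of these, 10 were higher with TGFβ, 1 was lower and 1 did not pass, where 55.1% of the 19101 probe sets above the limit were called. COL1A1 202311_s_at, COL5A1 212488_at and 203325_s_at and COL7A1 204136_at reached the limit with TGFβ alone, so that they had to differ to be counted, and their share is no measure of the group. No probe set of COL1A2, COL12A1 or COL13A1 reached it.

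Type I collagen is the main fibrillar collagen of connective tissue, and COL1A1 encodes its α1 chain. The probe set 202310_s_at of COL1A1 read 7.59, 7.55 and 7.77 on the untreated arrays and 11.92, 11.59 and 11.69 on the TGFβ arrays. It rose by 4.10 (SE 0.095, 17.1-fold, adjusted p = 1.32e-06, limma), which placed it at rank 1 of 54613 by size of rise. The probe set 202311_s_at read 4.40, 4.57 and 4.84 on untreated arrays and 8.64, 8.63 and 8.64 on TGFβ arrays. The difference was 4.03 (SE 0.095), but its untreated values lay below the median signal of each array (5.14 to 5.21), so that the size of this rise depends on how signals near background were computed. The TGFβ arrays had an SD of 0.0061.

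The other COL1A1 probe sets gave smaller rises. The probe set 1556499_s_at, at a high signal, went from 10.10, 10.14 and 10.69 to 13.11, 12.97 and 13.06, a rise of 2.74 (SE 0.12, 6.66-fold, rank 27). The probe set 217430_x_at, whose suffix marks probes that may bind other transcripts too, went from 7.63, 7.68 and 7.66 to 9.19, 9.07 and 9.03, a rise of 1.44 (SE 0.077, 2.71-fold, rank 216). In all 4 of these probe sets the groups were far apart in each of the 3 pairs of same-numbered arrays. The fifth, 202312_s_at, read 4.78, 4.84 and 4.78 without and 5.19, 4.98 and 4.94 with TGFβ, and its difference of 0.23 (95% confidence interval 0.041 to 0.43) did not pass (adjusted p = 0.0948, limma). The size of the COL1A1 change therefore depended on the probe set, from 0.23 to 4.10. As a mean of all 5 probe sets the gene rose by 2.51 (SE 0.081), and of the 4 above the limit by 3.08.

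COL1A2 encodes the α2 chain of type I collagen, and its values stood apart from those of COL1A1. The probe set 202403_s_at read 4.90, 4.91 and 4.82 untreated and 5.20, 4.97 and 4.75 with TGFβ. The probe set 202404_s_at read 3.89, 3.81 and 3.80 untreated and 3.76, 3.85 and 3.82 with TGFβ. The probe set 229218_at read 3.95, 3.85 and 3.77 untreated and averaged 3.94 ± 0.056 (SD, n = 3 arrays) with TGFβ. All 3 lay far below a signal of 100 and overlapped between the groups, and their differences were 0.095, -0.021 and 0.084. Their 95% confidence intervals ran from -0.20 at the lowest to 0.30 at the highest, so a rise like that of COL1A1 was not measured by any of them. A message below the range these probe sets measure cannot be told apart from an unchanged one.

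**Figure D2:**
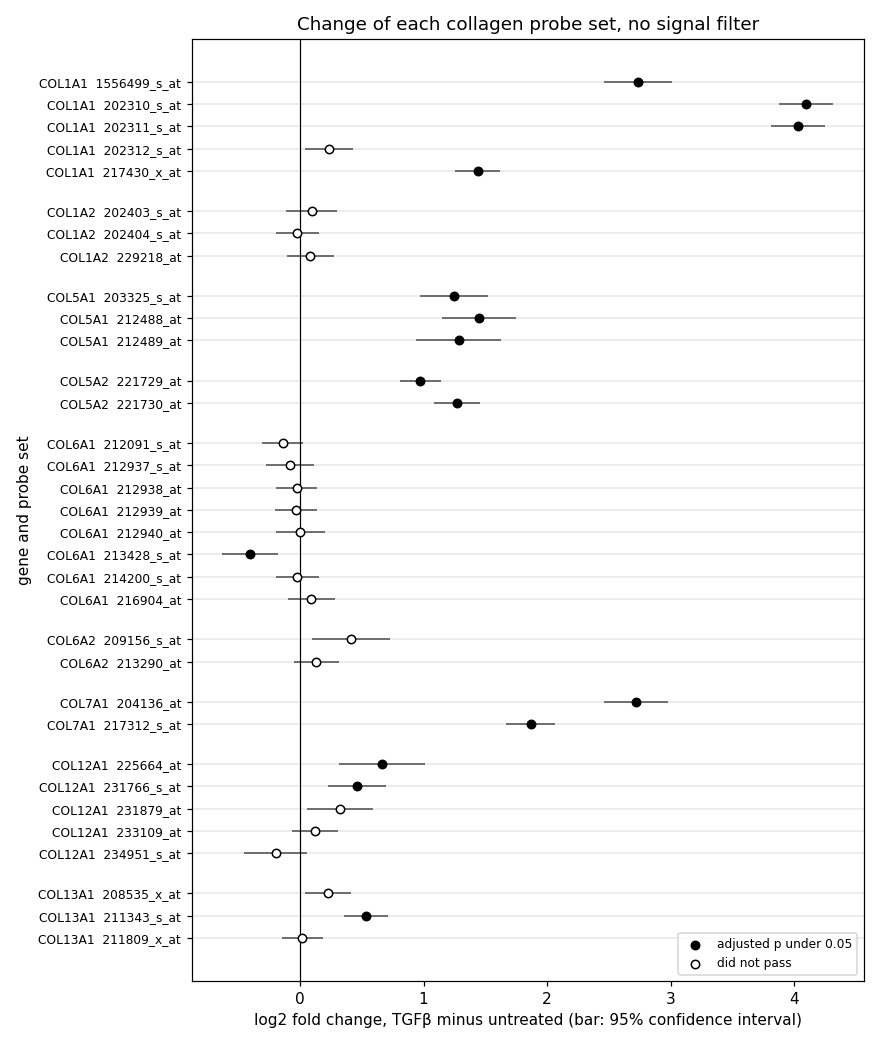
Log2 fold change (TGFβ minus untreated) of each of the 33 collagen probe sets with its 95% confidence interval, filled where the adjusted p was under 0.05. The probe sets of COL1A1 spread from 0.23 to 4.10, those of COL5A1 and COL5A2 lie between 0.97 and 1.45, and those of COL6A1 lie near 0 except 1 at -0.41.

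Of the type V chains, α1 and α2 rose and α3 did not pass. COL5A1, the α1 chain, is read by 3 probe sets. The probe set 212488_at went from 5.47, 5.73 and 5.99 to 7.32, 7.10 and 7.12, a rise of 1.45 (SE 0.13, 2.73-fold, adjusted p = 0.000207, limma). The probe set 203325_s_at went from 5.62, 5.40 and 5.67 to 7.22, 6.58 and 6.63, a rise of 1.25 (SE 0.12). The probe set 212489_at, below the limit in both groups, went from 4.54, 4.64 and 4.61 to 6.32, 5.55 and 5.77, a rise of 1.28 (SE 0.15, adjusted p = 0.000753). The 3 rises were close in size, the groups did not overlap in any, and TGFβ replicate 1 was the highest array in each. Untreated signals of COL5A1 were all below 100. COL5A3, the α3 chain, chosen for mention after its values were seen, was below the limit in both groups, with means of 6.07 and 6.13 and a difference of 0.058 (adjusted p = 0.571, limma without a limit on signal).

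COL5A2, the α2 chain, was well above the limit in both groups and showed the least spread between arrays of the collagens that rose above it. The probe set 221729_at read 10.13, 10.11 and 10.16 untreated and 11.14, 11.08 and 11.10 with TGFβ, a rise of 0.97 (SE 0.071, 1.96-fold). The probe set 221730_at read 8.77, 8.75 and 8.89 untreated and 10.19, 9.96 and 10.07 with TGFβ, a rise of 1.27 (SE 0.079, 2.41-fold). As a gene COL5A2 rose from 9.47 ± 0.048 to 10.6 ± 0.072 (SD, n = 3 arrays a group), 2.18-fold, with an adjusted p of 3.04e-05 from limma. COL3A1, which RefSeq places next to COL5A2 in the genome and which encodes type III collagen, was chosen for mention after its values were seen. It stayed between 4.62 and 4.76 on all 6 arrays, with a difference of 0.055.

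Type VI collagen, which forms filaments between the cell and the fibrils, showed unequal values for its chains. Among 8 probe sets of COL6A1, 7 lay below a signal of 100 in both groups and differed by -0.14 to 0.092, and none of these passed. The remaining probe set, 213428_s_at, read 7.71, 7.82 and 7.96 untreated and 7.56, 7.33 and 7.38 with TGFβ. It fell by 0.41 on the log2 scale (SE 0.096, 1.32-fold lower, adjusted p = 0.0209, limma), without overlap between the groups. Tested without replicate 2 or replicate 3 it no longer passed, at -0.37 (adjusted p = 0.0804) and -0.32 (adjusted p = 0.134). Tested as the gene value of COL6A1 among the 10115 genes above the limit, the same probe set passed (adjusted p = 0.00883) and did so without each replicate in turn (highest adjusted p = 0.0449). As a mean of all 8 probe sets COL6A1 differed by -0.078 (95% confidence interval -0.21 to 0.050, adjusted p = 0.358).

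COL6A2, which RefSeq places beside COL6A1, did not share that direction. Its probe set 209156_s_at read 6.62, 6.77 and 7.07 untreated and 7.48, 6.88 and 7.32 with TGFβ, so that untreated replicate 3 lay above TGFβ replicate 2. The difference of 0.41 (95% confidence interval 0.093 to 0.73) had an adjusted p of 0.0757 among all probe sets and 0.0501 among those above the limit. Tested as a gene it passed (SE 0.14, adjusted p = 0.0449, limma), but not when the experiment number was left out of the model (adjusted p = 0.0575), and without replicate 1 the difference was 0.18. The probe set 213290_at, below the limit, read 5.44, 5.21 and 5.23 untreated and 5.47, 5.47 and 5.34 with TGFβ, and its difference of 0.13 did not pass (95% confidence interval -0.049 to 0.31). As a mean of both probe sets COL6A2 rose by 0.27 (95% confidence interval 0.10 to 0.44), without overlap between the groups. That rise passed in limma without a limit on signal (adjusted p = 0.0295). COL6A3, the third common chain of type VI and also chosen after its values were seen, was below the limit, with means of 4.66 and 5.15 and a difference of 0.49 (adjusted p = 0.00250 without a limit on signal).

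Type VII collagen forms the anchoring fibrils that tie the epithelial basement membrane to the tissue below, and COL7A1 encodes its only chain. The probe set 204136_at read 6.17, 6.18 and 5.93 on the untreated arrays and 8.58, 8.95 and 8.91 on the TGFβ arrays. It rose by 2.72 (SE 0.11, 6.59-fold, adjusted p = 5.76e-06, limma), rank 28 of 54613 by size of rise. The probe set 217312_s_at went from 6.74, 6.63 and 6.76 to 8.49, 8.69 and 8.54, a rise of 1.87 (SE 0.086, 3.65-fold, rank 90). In both, every TGFβ array lay far above every untreated array. Unlike COL5A1, COL7A1 had its lowest TGFβ values in replicate 1. As a gene COL7A1 went from 6.40 ± 0.056 to 8.69 ± 0.15 (SD, n = 3 arrays a group), 4.90-fold higher, or 1.87 on the log2 scale where a signal of 100 was asked of both groups.

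Type XII collagen decorates fibrils, and its gene COL12A1 stayed below a signal of 100. The probe set 225664_at read 5.21, 5.37 and 5.67 untreated and 6.38, 5.87 and 5.99 with TGFβ, a rise of 0.67 (SE 0.15, adjusted p = 0.0166, limma) that was 0.41 without replicate 1. The probe set 231766_s_at read 4.01, 3.95 and 4.22 untreated and 4.58, 4.58 and 4.40 with TGFβ, a rise of 0.46 (SE 0.10, adjusted p = 0.0140) that missed the threshold without replicate 2 (0.38, adjusted p = 0.0648). The other 3 differed by 0.32, 0.12 and -0.20 and did not pass. The gene's mean over all 5 probe sets rose by 0.28 (SE 0.069, adjusted p = 0.0256), and missed the threshold without replicate 1 (0.21, adjusted p = 0.0729) or replicate 2 (0.27, adjusted p = 0.0968).

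COL13A1 encodes the membrane collagen of type XIII. The probe set 211343_s_at read 6.05, 5.96 and 5.83 untreated and 6.49, 6.48 and 6.48 with TGFβ, a rise of 0.53 (SE 0.077, adjusted p = 0.00207, limma), the largest of its 3. The probe set 208535_x_at read 6.14, 5.96 and 6.13 untreated and 6.33, 6.34 and 6.24 with TGFβ, and its difference of 0.22 did not pass (adjusted p = 0.0981) although the groups did not overlap. The probe set 211809_x_at differed by 0.019 (95% confidence interval -0.15 to 0.19). The mean over the 3 rose by 0.26 (SE 0.057, adjusted p = 0.0152), and missed the threshold without replicate 2 (0.22, adjusted p = 0.105) or replicate 3 (0.26, adjusted p = 0.0682).

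Taking each gene as the mean of all its probe sets, 7 of the 9 were higher with TGFβ and 0 were lower by limma, against 26.8% of all 19777 genes called, 12.7% higher and 14.1% lower. COL1A2 and COL6A1 did not pass, with unadjusted p of 0.355 and 0.192. The median change over all 9 genes was 0.28.

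**Figure D3:**
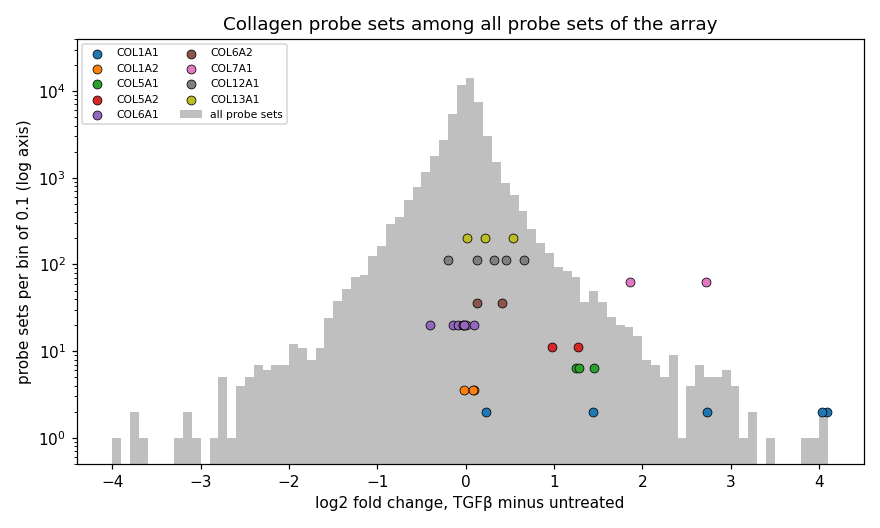
Number of probe sets of the array (grey bars, log axis) by log2 fold change in bins of 0.1, with the 33 collagen probe sets as points coloured by gene, whose height only separates the genes. Both points past 4 are COL1A1, and most COL1A2, COL6A1 and COL6A2 points lie over the centre of the distribution.

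Chains of the same collagen type were then compared within arrays, to ask whether they changed by unequal amounts. For each of 3 pairs the log2 difference between the chains was taken on each array and compared between groups by an exact permutation test, two-sided, which with 3 arrays a group cannot go below p = 0.10. The difference between COL1A1 and COL1A2 grew by 3.24, 3.03 and 2.80 between same-numbered arrays 1, 2 and 3, a mean of 3.02 or 8.13-fold (exact p = 0.10, 0.15 adjusted over the 3 pairs). The arrays of the groups did not overlap, but COL1A2 was below the limit throughout, so the size of this change is set by COL1A1. Here COL1A1 was the mean of its probe sets above the limit, and COL1A2 the mean of all its probe sets. With every probe set of both genes averaged, the mean was 2.45. The difference between COL5A1 and COL5A2 changed by 0.51, 0.18 and -0.016, a mean of 0.23, and the groups overlapped (exact p = 0.20, 0.20 adjusted). That mean was 0.017 when a constant of 16 was added to the signal and 0.47 when the brightest probe set stood for each gene. The difference between COL6A1 and COL6A2 changed by -1.01, -0.60 and -0.83, a mean of -0.81, without overlap (exact p = 0.10, 0.15 adjusted). It was -0.35 when every probe set was averaged.

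**Figure D4:**
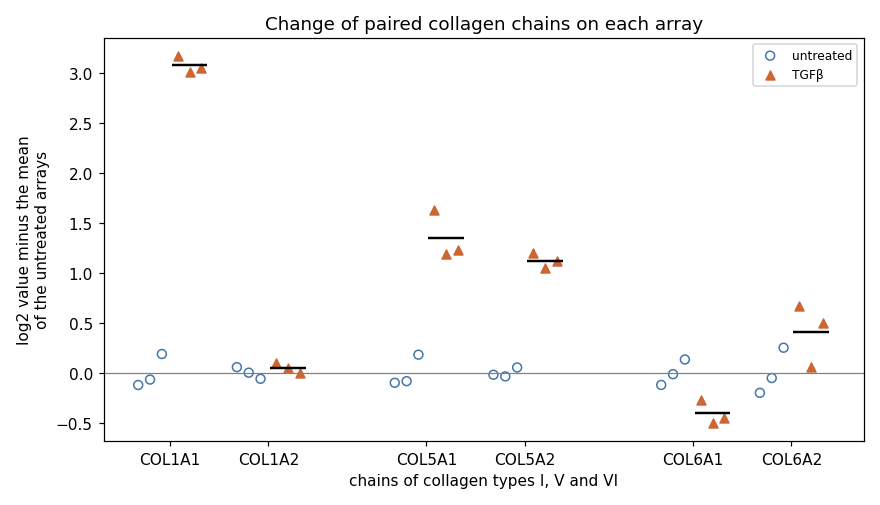
Log2 value of each chain of collagen types I, V and VI on each of the 6 arrays, minus the mean of its untreated arrays, with bars at the TGFβ means. COL1A1 and COL1A2 differ by 3.02 in their change, COL5A1 and COL5A2 by 0.23, and COL6A1 and COL6A2 lie on opposite sides of 0.

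Among the 3 TGFβ arrays, replicate 1 was the highest for 20 of the 33 collagen probe sets (60.6%), compared with 35.7% of all probe sets. Replicates 2 and 3 were highest for 7 and 6. Among the untreated arrays the highest was replicate 3 for 14 of the 33 (42.4%), compared with 33.3% of all. These are counts over probe sets that share arrays and genes, and no test was made of them.

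The gene whose values over the 6 arrays were nearest to those of each collagen above the limit was sought among 10109 other genes, by the root mean square difference of log2 values after centring each gene on its own mean. A nearest gene was picked for like values on these arrays, so a change of like size follows from the search. For COL1A1 it was PLEK2, a pleckstrin family member, at 0.069, with a rise of 3.02. For COL5A1 it was LOXL2, a lysyl oxidase that crosslinks collagen, at 0.078, with a rise of 1.27. Both COL5A1 probe sets used here reached the limit with TGFβ alone, and LOXL2 rose by 0.62 over all its probe sets. For COL5A2 it was PIK3CD, a catalytic subunit of phosphoinositide 3-kinase, at 0.016. For COL7A1 the nearest was LMCD1, at a larger distance of 0.13 and with a rise of 2.09. COL6A1 was nearest to SPAG16 (0.022) and COL6A2 to SLCO4C1 (0.087).

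Other collagens and the genes that make, crosslink, bind or cut collagen were counted by list, in the fit of 10115 genes with a signal of at least 100 in either group, of which 58.7% were called (27.7% higher, 31.0% lower). Of 40 listed genes above the limit, 25 were higher and 9 lower. A gene that reached the limit in 1 group alone had to differ to be counted, as did COL27A1, FBLN5, BMP1 and MMP14 with TGFβ and COL4A5 and COL26A1 without it. With every probe set averaged and no limit, 31 of 105 listed genes were higher and 5 lower, against 26.8% of all genes called. Of 7 other fibrillar collagen genes only 2 reached the limit. COL27A1, the chain of type XXVII, rose from 6.13 to 7.24 (1.11, SE 0.062, adjusted p = 4.86e-05, limma), and COL11A1, a chain of type XI, fell from 9.93 to 9.16, by 0.77 (SE 0.095). Of 28 further collagens 4 reached it, of which 2 were lower and 2 did not pass. COL4A5, a basement membrane chain, fell by 0.88 (SE 0.13), COL26A1 fell by 0.54 (SE 0.060), while COL18A1 differed by -0.22 (adjusted p = 0.108) and COL21A1 by 0.099 (adjusted p = 0.126). Over all their probe sets the changes were smaller, at 0.51 for COL27A1, -0.43 for COL4A5 and -0.25 for COL26A1, and these still passed.

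The list of collagen folding and hydroxylation held 18 genes above the limit of 22, of which 13 were higher, 3 lower and 2 not called, with a median of 0.35 against -0.013 for all genes. The largest rises were of P4HA3 (1.76, SE 0.096) and P4HA2 (0.89, SE 0.051), α subunits of prolyl 4-hydroxylase, and of the lysyl hydroxylase PLOD1 (1.34, SE 0.089). Chosen after their values were seen, SERPINH1, the collagen chaperone HSP47, rose by 0.45 (SE 0.061), and the lower genes were MIA3 (-0.45), which exports procollagen, CRTAP (-0.17) and TMEM38B (-0.16). P4HB (0.17) and P3H4 (-0.027) did not pass. Without the limit CRTAP (adjusted p = 0.0628) and TMEM38B (adjusted p = 0.0818) lost their calls, and P4HA3 rose by 0.88. FKBP14, also chosen after its values were seen, rose by 0.30 above the limit. It lost its call without the limit (0.21, adjusted p = 0.0520). Of 5 genes of propeptide removal and crosslinking, 4 were higher and 1 lower, with a median of 0.58. The higher genes were LOXL2 (1.27, SE 0.086), the procollagen proteinase enhancer PCOLCE2 (0.89, SE 0.063), the C-proteinase BMP1 (0.58, SE 0.057) and FURIN (0.56), and the lower gene was PCOLCE (-0.22), the last 2 chosen after their values were seen. Without the limit LOXL2 rose by 0.62, and BMP1 differed by 0.19 and lost its call (adjusted p = 0.0519). LOX, LOXL1 and LOXL4, below the limit and chosen after their values were seen, rose by 0.89, 0.21 and 0.26. They passed in limma without the limit (adjusted p of 0.000218, 0.0425 and 0.0107).

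Of 5 collagen receptors above the limit 3 were higher, 1 lower and 1 not called. ITGA2, the α2 integrin subunit, rose by 1.68 (SE 0.063) and MRC2, a receptor that takes up collagen, by 0.71 (SE 0.10), while ANTXR1 fell by 0.45 (SE 0.055). ITGB1, the β1 subunit, rose by 0.37, and ANTXR2 (-0.054) did not pass. Over all its probe sets ANTXR1 differed by -0.081 and lost its call (adjusted p = 0.336), and the rise of ITGB1 was 0.21. Of 4 genes of collagen cleavage 3 were higher and 1 lower. The gelatinase MMP2 rose by 0.86 (SE 0.055), the membrane protease MMP14 by 0.23 (SE 0.052) and CTSL by 0.17, and cathepsin B (CTSB) fell by 0.18 (SE 0.053). Without the limit MMP2 rose by 0.32, and CTSL (adjusted p = 0.0755) and CTSB (adjusted p = 0.0567) lost their calls. Among fibril-associated proteins only FBLN5 and TNC were above the limit. FBLN5 rose by 1.48 (SE 0.081), and TNC (-0.19) did not pass (adjusted p = 0.135). Below the limit, FN1 rose by 0.56, FBN1 by 0.31 and BGN by 0.31, all chosen after their values were seen. They passed in limma without the limit (adjusted p of 0.000584, 0.00845 and 0.0210).

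**Figure D5:**
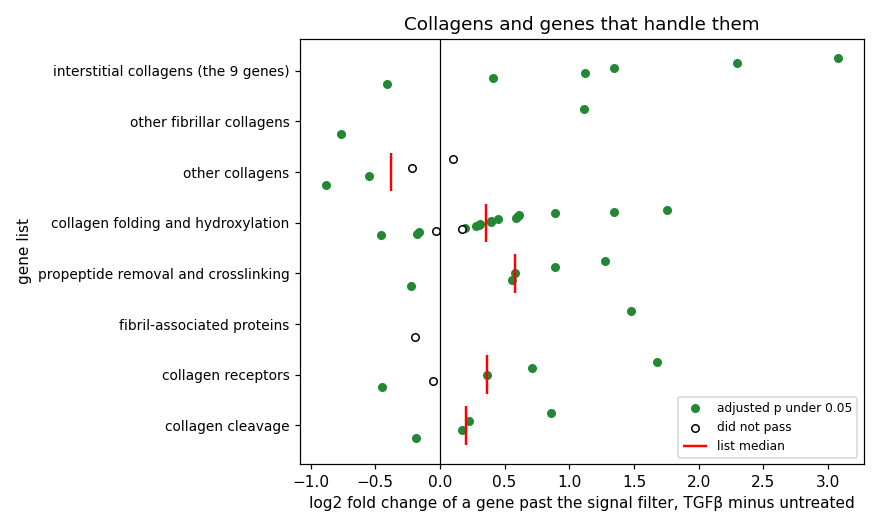
Log2 fold change (TGFβ minus untreated) of each gene above the signal limit, by gene list, filled where the adjusted p was under 0.05, with the median as a red line for lists of at least 3 genes apart from the 9 collagens. The top line holds the 6 of the 9 collagens above the limit, and genes of folding, crosslinking, receptors and cleavage lie mostly to the right of 0.

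Cells other than Panc-1 were looked for by their markers, since stromal cells make type I collagen. Of 12 stromal markers on the array only FBLN1 was above the limit, and it was lower with TGFβ, by 0.67 on the log2 scale. The summed linear signal of the list, FBLN1 included, was 343 to 356 in untreated and 329 to 341 in TGFβ arrays. Over all probe sets FBLN1 fell by 0.35 and RGS5 differed by -0.13. The other stromal markers differed upward, the most in THY1 (0.19), PDGFRB (0.14) and C7 (0.11). Without the limit only FBLN1 of the list was called. LUM was at 3.30 to 3.54, DCN at 4.14 to 4.31, PDGFRA at 3.76 to 3.92, FAP at 4.02 to 4.38 and COL3A1 at 4.62 to 4.76 over all 6 arrays, and none of these was called. No leukocyte, endothelial or acinar and islet marker was above the limit. Of 6 epithelial markers of the tumour 5 were above the limit. KRT8, KRT18, CDH1 and EPCAM of these were lower, while KRT7 differed by 0.24 and did not pass (adjusted p = 0.0569, limma). The summed signals of the 6 were 11575 to 11822 untreated and 4310 to 4542 with TGFβ. The part of this in the collagen results was not tested. In bulk RNA a change in the number of expressing cells and a change in message per cell cannot be told apart.

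The arrays were alike in overall signal, with medians of 5.14 to 5.21, and correlated at 0.995 or above within groups and at 0.954 to 0.959 between them. The 3′ minus 5′ difference of the ACTB control probe sets, a sign of RNA quality, was 0.55 ± 0.031 in untreated and 0.33 ± 0.060 in TGFβ arrays (SD, n = 3), and that of GAPDH was -0.0096 ± 0.0096 and -0.028 ± 0.023. The part of this in the collagen results was not tested.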

How the data were processed

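Panc-1 RNA was measured on 6 arrays, 3 untreated and 3 with TGFβ. The authors deposited log2 values, 1 per probe set and array (54675, of which 62 controls were left out). The software and any normalisation are not given in the sources used here. Annotation names 1 gene for 41091 probe sets, several for 1801 and none for 11721.

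As in the methods of the study, a probe set was kept if its mean signal reached 100 in either group, and experiments were paired. The pairs were taken from the array numbers in the labels. A gene's value was the mean log2 value of its remaining probe sets. Tests used limma 3.58.1 (lmFit, eBayes, replicate number as a block, two-sided) in R 4.3.3 with Benjamini-Hochberg adjustment over all genes or probe sets, on 2 residual degrees of freedom plus 4.12 prior (genes) or 5.77 (all probe sets). Fits without the limit took every probe set. Whether the 3 experiments used separate cultures beyond being repeats is not stated, so p-values measure the spread between these arrays. The number of arrays limits precision.

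The collagens and the gene lists were chosen with earlier results of these data known. Named genes are all 9 collagens, up to 3 called genes with the largest change per list and the nearest gene to each collagen, besides cell type markers and those marked as chosen later. Outside this rule, ITGB1, CTSL and the uncalled COL18A1, COL21A1, P4HB, P3H4, ANTXR2 and TNC were also named. The workflow was tested on simulated data. Alternatives covered the block, filter, normalisation, logarithm, variance model, probe sets, replicates, threshold and the methods' t-test. Promoters came from RefSeq tables (GRCh38.p14). Plots used Python 3.11.15, pandas 2.3.3 and matplotlib 3.10.9.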

Additional observations from a re-analysis of the deposited data

How the results depend on the processing

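Over the values of 24 single collagen genes and probe sets, 211 alternatives were run, of which 181 kept their direction and side of the threshold, 28 lost the call, 2 gained it and 0 reversed. The probe sets among the 24 were the 15 called in the fit without the limit, so probe sets not called there are outside this tally. In some alternatives a gene kept the same probe sets and change, as COL5A2 did without the limit. Under the methods' t-test (paired, two-tailed) after Benjamini-Hochberg adjustment, changed collagen genes numbered 3 on log2 values and 3 on linear values in place of 6, and changed probe sets 7 on linear values in place of 11. COL1A1, COL5A2 and COL7A1 kept their calls there, and COL5A1 (adjusted p = 0.0649 on log2 and 0.0843 on linear values), COL6A1 and COL6A2 lost theirs. By the same t-test without the limit on signal, COL12A1 (adjusted p = 0.228 and 0.243) and COL13A1 (0.118 and 0.118) also lost their calls. The cause was not tested. With each replicate left out, changed genes numbered 6 to 6, changed probe sets 11 to 12, and without the limit on signal 14 to 16. COL1A1 ranged from 2.51 to 3.62, COL5A1 from 1.12 to 1.50, COL5A2 from 0.97 to 1.15 and COL7A1 from 1.87 to 2.40, with adjusted p of at most 0.00116 in the limma fits. COL5A1 could not be tested where the limit was set on both groups or on the mean of all arrays. COL6A1 ranged from -0.53 to -0.078 and COL6A2 from 0.18 to 0.56. COL1A2 passed under none of its alternatives except the methods' t-test before adjustment, at a difference of 0.053 that was positive in all 3 pairs of same-numbered arrays.

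Deviations of same-numbered arrays correlated at -0.24, 0.24 and 0.11, so the numbers need not pair the arrays. Without the replicate block 5 collagen genes were changed in place of 6, with COL6A2 lost (adjusted p = 0.0575), 11 probe sets as with it, and 35 of the 40 listed genes in place of 34.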
